A study of Mus musculus with 12 samples.

Results

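Genes that make, modify and export sterols and fatty acids were followed in sorted mouse CD8 T cells by RNA sequencing. The list held 38 symbols, taken from the enzymes of the mevalonate, cholesterol and fatty acid pathways, their SREBP regulators and the LXR efflux genes, and every row of the read count table with a listed symbol was used. There were 36 such rows among 16353 genes, and Mvd and Msmo1 were not analysed here under those symbols. All 36 genes passed the filter on low counts, as did 12499 of the 16353 genes.

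Cells build cholesterol from acetyl-CoA through mevalonate, isoprenoids, squalene and lanosterol, and build fatty acids from the same acetyl-CoA. The transcription factors SREBP-2 and SREBP-1 switch these enzymes on: Scap carries them out of the endoplasmic reticulum when sterol is scarce, and Insig proteins hold them back when it is plentiful. The nuclear receptors called LXR sense oxysterols and switch on the pumps that export cholesterol. Srebf1 and Scd1 are also known targets of LXR. A T cell that leaves rest and prepares to divide is known to need new membrane lipid.

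The cells were CD8 T cells with the transgenic KB5 T cell receptor, which reacts to C57BL/6 cells, on the CBA/J background, and all 4 groups carried this receptor. Inflamed cells came from mice given 10 M (mega) C57BL/6 splenocytes intravenously, together with 0.5 mg of anti-CD154, an antibody to CD40 ligand, and 100 µg of lipopolysaccharide (LPS) into the peritoneum. Tolerized cells came from mice given the splenocytes and anti-CD154 without LPS, activated cells from mice given the splenocytes alone, and naive cells from untreated mice. Treated cells, a term used here for inflamed, tolerized and activated cells together, were taken after 12 h. All cells were sorted from spleen on the KB5 receptor and CD8 to a stated purity of 95%, and each group had 3 libraries. No label ties the libraries, which are called independent, to separate mice. The p-values thus measure the spread between these samples, which may be technical.

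The libraries held 29.3 M to 84.5 M reads on genes. T cell markers were present in each of them: the summed level of Cd3e, Cd3d, Cd3g, Cd8a, Cd8b1, Cd2 and Lck was 3197 to 3453 counts per M reads (CPM) in inflamed, 2404 to 3033 CPM in tolerized, 2112 to 3288 CPM in activated and 4332 to 5373 CPM in naive cells. Other cell types also left transcripts. The summed level of 10 macrophage markers was 9.11 to 536 CPM in inflamed, 32.5 to 109 CPM in tolerized, 45.2 to 595 CPM in activated and 621 to 1565 CPM in naive libraries. For 6 B cell markers it was 62.6 to 91.4, 57.6 to 122 and 77.8 to 88.4 CPM in the inflamed, tolerized and activated libraries, against 258 to 334 CPM in the naive libraries. Tolerized library 3 stood apart in 6 mitosis genes, with a sum of 732 CPM against 20.4 to 170.3 CPM in the other treated libraries.

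Against naive cells, many enzymes of sterol and fatty acid synthesis were higher in treated cells, Idi1, Acaca and Fasn by over 5-fold. Genes that desaturate and lengthen fatty acids went both ways. The LXR targets Abca1, Abcg1 and Mylip were lower, at 6.77% to 29.2% of the naive mean. Of the 36 genes, 17 rose and 10 fell in inflamed cells, 19 rose and 9 fell in tolerized cells, and 14 rose and 9 fell in activated cells, by limma with Benjamini-Hochberg adjusted p under 0.05 over all 12499 genes. The background was high: of all genes, 36.9% rose and 35.5% fell in inflamed, 37.4% rose and 35.9% fell in tolerized, and 35.3% rose and 35.3% fell in activated cells. The counts of the list are to be read against this background, and the sizes are given by role below. Their median log2 change was 0.31 in inflamed, 0.40 in tolerized and 0.29 in activated cells, beside -0.0056, -0.0099 and -0.039 over all genes. In bulk RNA from sorted cells, fewer cells of a type and less RNA per cell cannot be told apart. With plain library-size scaling the median of all genes moved by -0.32, -0.30 and -0.26 in these comparisons, 38.6%, 39.6% and 39.1% of all called genes were higher (against 51.0%, 51.0% and 49.97%), and 14 genes of the list rose in each comparison while 14, 12 and 13 fell. Over the 3 comparisons this scaling ended 8 calls of the list, all of rises, and added 11, all of falls, and 9 uncalled values and 0 called ones changed sign. Of the calls that held, 13 rises shrank and 9 falls grew by over 1.5 times. The rises were those of Pmvk, Nsdhl, Scap and Acly in each comparison and of Fdps in tolerized cells, and Acly, for example, stood at 0.42, 0.35 and 0.32 on the log2 scale in inflamed, tolerized and activated cells. The falls were those of Srebf1 in inflamed and tolerized cells, Elovl5 and Nr1h2 in tolerized and activated cells, Dhcr7 and Fads1 in inflamed cells and Insig2 in tolerized cells.

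The same 14 genes rose in all of the 3 comparisons with naive cells: Hmgcs1, Pmvk, Idi1, Fdps, Sqle, Lss, Cyp51, Nsdhl, Hsd17b7, Scap, Acly, Acaca, Fasn and Elovl1. The 7 that fell in all 3 were Tm7sf2, Srebf1, Scd1, Elovl5, Abca1, Abcg1 and Mylip. Acat2, Ebp, Srebf2, Insig1 and Fads2 passed the test in none, and the other 10 in 1 or 2 of them. No gene rose in one and fell in another. These comparisons share the naive libraries, so their likeness is not independent.

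**Figure D1:**
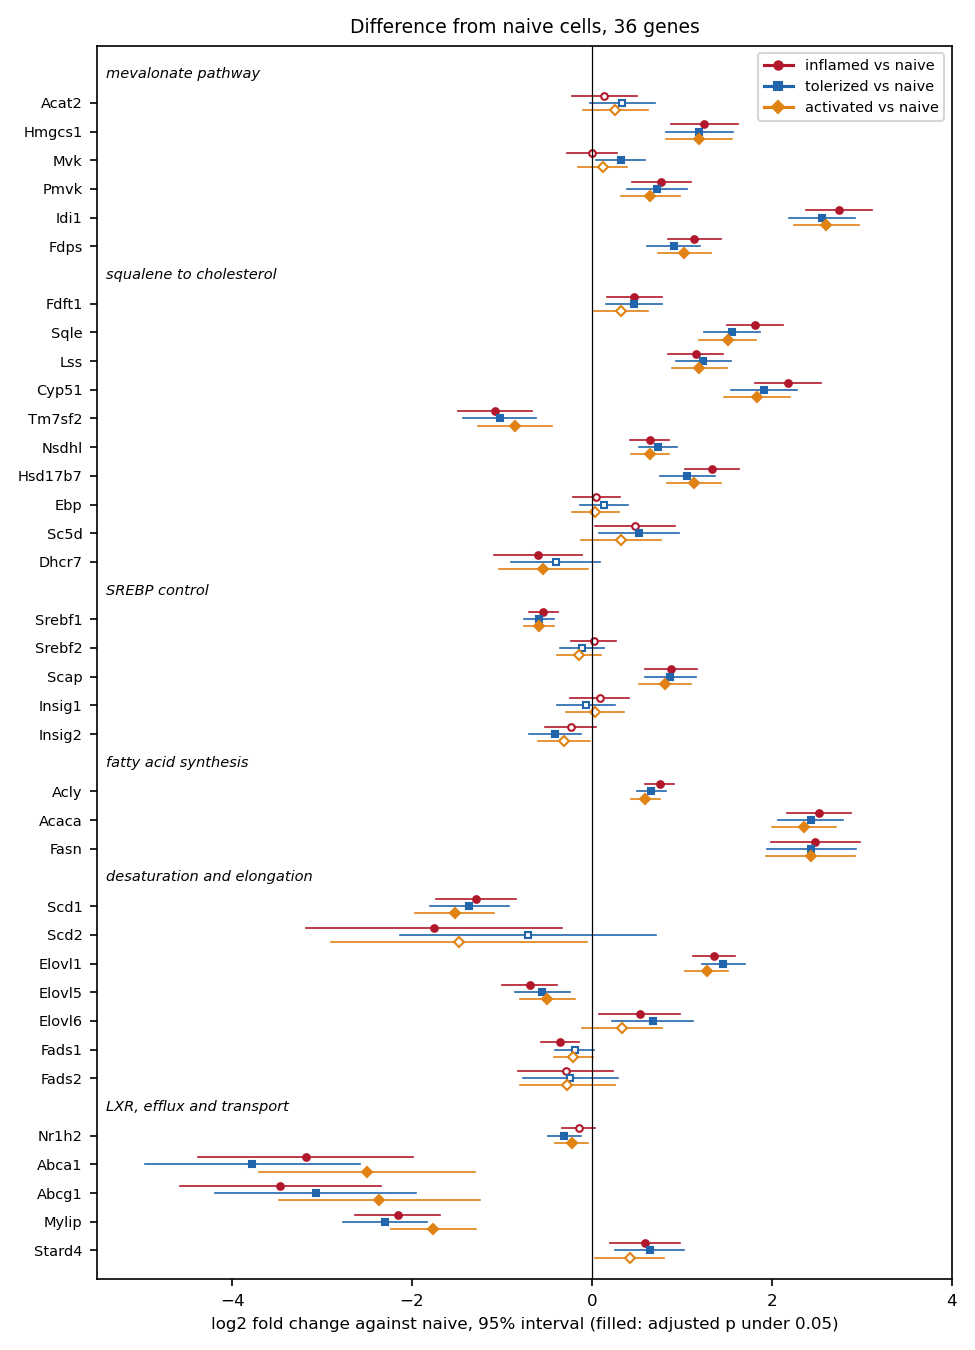
Log2 fold changes of the 36 genes against naive cells (horizontal axis), in rows by role, for inflamed, tolerized and activated cells, with 95% confidence intervals; filled points passed adjusted p under 0.05 over all genes. Idi1, Acaca and Fasn lie farthest to the right, between 2.36 and 2.75, and Abca1, Abcg1 and Mylip farthest to the left, between -3.77 and -1.76.

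The starts of 4 genes are shown for the letters that SREBP regulation is known to use, because Idi1 and Fasn had among the largest rises, Hmgcs1 rose with them, and Srebf2, which encodes the regulator, did not pass the test. Each line gives the 250 bases before the RefSeq transcription start, read 5′ to 3′ on the gene's strand. Capitals mark matches on either strand to a sterol regulatory element, TCACNCCA, or to a CCAAT box, which reads ATTGG on the other strand.
Idi1 (GRCm38 chr13:8885356-8885605, plus strand): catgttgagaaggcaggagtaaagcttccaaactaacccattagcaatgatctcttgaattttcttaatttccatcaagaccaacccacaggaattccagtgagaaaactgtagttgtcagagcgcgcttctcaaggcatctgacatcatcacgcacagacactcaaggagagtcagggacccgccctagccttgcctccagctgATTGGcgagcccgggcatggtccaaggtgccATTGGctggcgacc
Hmgcs1 (GRCm38 chr13:119690101-119690350, plus strand): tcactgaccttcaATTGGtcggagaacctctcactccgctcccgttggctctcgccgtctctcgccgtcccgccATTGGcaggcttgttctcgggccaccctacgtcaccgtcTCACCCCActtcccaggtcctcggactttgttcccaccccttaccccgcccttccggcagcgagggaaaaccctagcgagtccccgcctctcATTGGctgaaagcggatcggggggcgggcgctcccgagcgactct
Srebf2 (GRCm38 chr15:82147019-82147268, plus strand): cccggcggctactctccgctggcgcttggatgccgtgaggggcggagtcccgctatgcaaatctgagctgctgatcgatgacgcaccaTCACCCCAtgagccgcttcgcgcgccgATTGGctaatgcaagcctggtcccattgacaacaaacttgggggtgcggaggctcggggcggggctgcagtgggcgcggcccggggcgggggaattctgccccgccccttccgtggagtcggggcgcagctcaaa
Fasn (GRCm38 chr11:120824548-120824797, minus strand): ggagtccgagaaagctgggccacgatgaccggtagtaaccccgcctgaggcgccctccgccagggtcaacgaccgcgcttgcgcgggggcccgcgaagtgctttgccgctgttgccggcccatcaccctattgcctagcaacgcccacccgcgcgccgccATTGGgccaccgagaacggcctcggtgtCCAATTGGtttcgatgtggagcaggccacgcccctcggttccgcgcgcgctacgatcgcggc

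Positions below are the first base of a match counted from the start. The Hmgcs1 sequence held a sterol regulatory element at -137 and CCAAT boxes at -237, -176 and -45, and Srebf2 held the element at -162 and a CCAAT box at -135. Idi1 had CCAAT boxes at -45 and -14, and Fasn at -90, -62 and -59, of which the last pair overlap. For Fasn, the start used is not the outermost one of the gene. A RefSeq window (GRCm38.p6) of 250 bases before to 50 bases after the start was given for 28 of the 36 genes. CCAAT or its reverse complement was in 21 of these 28 (75.0%), against 41.1% of 27025 genes with such windows, where a gene with several starts counted if any window had it. The 27025 genes were not limited to those that passed the filter on low counts, as all 36 did, so the 2 sets are unlike. TCACNCCA was in 2 of the 28 (7.14%), Hmgcs1 and Srebf2, against 4.97% of all genes, and CACGTG, the E-box, in 7 (25.0%) against 8.09%. Both genes with TCACNCCA are thus among those shown, which do not stand for the list. Acaca, Cyp51 and Elovl1 rose more than Hmgcs1 in each comparison with naive cells, had no TCACNCCA in their windows and are not shown. By role, the CCAAT box was in 8 of 8 genes from squalene to cholesterol, 4 of 5 mevalonate genes, 4 of 5 SREBP control genes and 2 of 3 genes of fatty acid synthesis. It was in 2 of 4 desaturation and elongation genes and 1 of 3 LXR, efflux and transport genes. A match is a description of letters, not of binding.

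In the mevalonate pathway, which runs from acetyl-CoA to the isoprenoid units of sterols, 4 of 6 genes rose in inflamed cells, 5 of 6 in tolerized cells and 4 of 6 in activated cells, and none fell. Idi1 (GRCm38 chr13:8885606-8892396), the isomerase that interconverts the pathway's 5-carbon building blocks, changed most. It had 213, 192 and 144 CPM in inflamed, 184, 154 and 138 CPM in tolerized and 170.5, 171 and 149.9 CPM in activated cells. In naive cells Idi1 had 30.4, 26.6 and 21.6 CPM. Every treated library lay above every naive one, and the lowest treated library was above 4 times the highest naive one. The means differed 6.97-fold in inflamed, 6.06-fold in tolerized and 6.25-fold in activated cells, and the log2 change was 2.75 in inflamed, 2.56 in tolerized and 2.61 in activated cells (± 0.17 SE, n = 3 libraries a group, adjusted p at most 4.16e-07). Hmgcs1 (GRCm38 chr13:119690351-119708260), which makes HMG-CoA early in the pathway, had 163, 161 and 116 CPM in inflamed, 142, 144 and 133 CPM in tolerized and 116, 153 and 152 CPM in activated cells. In naive cells Hmgcs1 had 71.0, 63.4 and 48.9 CPM. The treated and naive libraries did not overlap, and the log2 change was 1.25 in inflamed, 1.20 in tolerized and 1.19 in activated cells (± 0.17 SE, n = 3 libraries a group, adjusted p at most 1.14e-04). Fdps, the synthase of farnesyl diphosphate, from which sterols and prenyl groups branch, had 78.6, 79.9 and 57.7 CPM in inflamed, 56.0, 64.3 and 62.2 CPM in tolerized and 62.6, 74.2 and 62.0 CPM in activated cells. In naive cells Fdps had 33.7, 33.3 and 28.9 CPM. Its treated libraries were all above its naive ones, with a log2 change of 1.14 in inflamed, 0.91 in tolerized and 1.03 in activated cells (± 0.13 SE, n = 3 libraries a group, adjusted p at most 1.27e-04).

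The kinases of the pathway moved less. Pmvk, phosphomevalonate kinase, had 20.9, 19.9 and 14.4 CPM in inflamed, 18.8, 16.0 and 17.8 CPM in tolerized and 16.7, 17.8 and 15.4 CPM in activated cells. In naive cells Pmvk had 11.2, 10.2 and 9.39 CPM. Again there was no overlap, and the log2 change was 0.77 in inflamed, 0.72 in tolerized and 0.65 in activated cells (± 0.15 SE, n = 3 libraries a group, adjusted p at most 0.00275). Mvk, mevalonate kinase, which acts just before Pmvk, had 9.48, 11.4 and 9.24 CPM in inflamed, 13.2, 12.7 and 12.3 CPM in tolerized and 11.5, 11.2 and 10.2 CPM in activated cells. In naive cells Mvk had 10.8, 10.1 and 9.16 CPM. Only the tolerized libraries were clear of the naive ones, and the log2 change was 0.00038 in inflamed, 0.32 in tolerized and 0.12 in activated cells (± 0.12 SE, adjusted p = 0.998 in inflamed, 0.0363 in tolerized and 0.398 in activated cells). The tolerized call was lost without tolerized replicates 1 or 2, activated replicate 2 or naive replicates 2 or 3 (each in turn, adjusted p = 0.0517 to 0.114, log2 change 0.26 to 0.33), under median-of-ratios scaling (0.28, adjusted p = 0.0693), with no filter (adjusted p = 0.0513) and with only the 2 groups compared (adjusted p = 0.0533). With library-size scaling the tolerized value of Mvk was 0.035 (adjusted p = 0.806), and Mvk was lower in inflamed cells, at -0.30 (adjusted p = 0.0450), and at -0.13 (adjusted p = 0.348) in activated cells. Acat2, the thiolase that joins acetyl-CoA units in the cytosol, had 14.3, 20.1 and 13.7 CPM in inflamed, 15.6, 20.9 and 18.7 CPM in tolerized and 15.7, 18.1 and 18.2 CPM in activated cells. In naive cells Acat2 had 15.3, 14.5 and 13.1 CPM. Inflamed and naive libraries overlapped, and no comparison passed (adjusted p = 0.460 in inflamed, 0.0828 in tolerized and 0.171 in activated cells), although tolerized cells did so without inflamed replicate 2 (0.34, adjusted p = 0.0479) or without tolerized replicate 1 (0.45, adjusted p = 0.0420). With library-size scaling Acat2 stood at -0.17 in inflamed and 0.045 in tolerized cells, uncalled.

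From squalene to cholesterol, 6 of 10 genes rose and 2 fell in inflamed cells, 7 rose and 1 fell in tolerized cells, and 5 rose and 2 fell in activated cells. Sqle, Lss, Cyp51, Nsdhl and Hsd17b7, which act from squalene to the demethylation of lanosterol, rose in all 3 comparisons. Cyp51 (GRCm38 chr5:4080674-4104697), the lanosterol demethylase, had 115, 108 and 84.7 CPM in inflamed, 91.9, 88.9 and 74.1 CPM in tolerized and 69.9, 90.6 and 79.9 CPM in activated cells. In naive cells Cyp51 had 24.8, 23.9 and 17.1 CPM. The means of treated cells were 4.68, 3.87 and 3.65 times the naive mean in inflamed, tolerized and activated cells, with a log2 change of 2.18 in inflamed, 1.92 in tolerized and 1.83 in activated cells (± 0.17 SE, n = 3 libraries a group, adjusted p at most 4.21e-06). Sqle, squalene epoxidase, a rate-limiting enzyme of the late pathway, had 81.6, 81.9 and 61.8 CPM in inflamed, 68.6, 64.9 and 53.8 CPM in tolerized and 55.8, 62.9 and 61.7 CPM in activated cells. In naive cells Sqle had 22.7, 21.6 and 17.4 CPM. Neither gene's treated libraries overlapped its naive libraries, and Sqle changed by 1.82 in inflamed, 1.56 in tolerized and 1.51 in activated cells (± 0.14 SE, n = 3 libraries a group, adjusted p at most 5.65e-06) on the log2 scale. Lss, which folds the epoxide of squalene into lanosterol, had 57.7, 54.3 and 46.7 CPM in inflamed, 63.7, 57.6 and 47.8 CPM in tolerized and 54.2, 60.4 and 48.6 CPM in activated cells. In naive cells Lss had 26.6, 22.2 and 20.9 CPM, and its log2 change was 1.15 in inflamed, 1.24 in tolerized and 1.19 in activated cells (± 0.14 SE, n = 3 libraries a group, adjusted p at most 2.89e-05). Hsd17b7, a ketosteroid reductase of the demethylation steps, had 35.96, 35.2 and 26.6 CPM in inflamed, 27.1, 27.7 and 24.9 CPM in tolerized and 26.0, 28.6 and 29.7 CPM in activated cells. In naive cells Hsd17b7 had 12.6, 13.6 and 10.6 CPM. Its naive libraries were all below its treated ones, with a log2 change of 1.33 in inflamed, 1.06 in tolerized and 1.14 in activated cells (± 0.14 SE, n = 3 libraries a group, adjusted p at most 5.04e-05). Nsdhl, the dehydrogenase that acts in the same steps, had 26.9, 24.1 and 23.3 CPM in inflamed, 25.8, 25.6 and 28.1 CPM in tolerized and 23.8, 25.7 and 24.8 CPM in activated cells. In naive cells Nsdhl had 15.2, 16.3 and 15.03 CPM. The rise was small but free of overlap, at 0.64 in inflamed, 0.74 in tolerized and 0.64 in activated cells (± 0.10 SE, n = 3 libraries a group, adjusted p at most 1.74e-04).

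Fdft1, squalene synthase, which commits farnesyl units to sterols, had 34.6, 31.9 and 22.9 CPM in inflamed, 27.0, 31.0 and 29.95 CPM in tolerized and 26.0, 27.8 and 25.1 CPM in activated cells. In naive cells Fdft1 had 20.8, 20.2 and 21.7 CPM. All treated libraries were above the naive ones, and the log2 change of 0.47 in inflamed and 0.47 in tolerized cells passed the test (± 0.14 SE, adjusted p = 0.0104 and 0.0107). That of 0.32 in activated cells did not (adjusted p = 0.0602). It passed without inflamed replicate 1 (adjusted p = 0.0454), without inflamed replicate 3 (adjusted p = 0.0133), with a filter at 5 CPM (adjusted p = 0.0495) and with only the 2 groups compared (adjusted p = 0.0313). With library-size scaling the Fdft1 values became 0.15 (adjusted p = 0.374) in inflamed, 0.17 (adjusted p = 0.328) in tolerized and 0.054 (adjusted p = 0.762) in activated cells. Sc5d, a late desaturase of the sterol ring, had 25.7, 29.2 and 17.0 CPM in inflamed, 23.5, 24.6 and 24.6 CPM in tolerized and 16.4, 22.8 and 24.6 CPM in activated cells. In naive cells Sc5d had 18.5, 16.9 and 14.4 CPM. Tolerized libraries alone were all above the naive ones, and the log2 change was 0.48 in inflamed, 0.53 in tolerized and 0.33 in activated cells (± 0.20 SE, adjusted p = 0.0518 in inflamed, 0.0347 in tolerized and 0.166 in activated cells). Inflamed replicate 3 was the lowest inflamed library, and without it the inflamed value was 0.70 (adjusted p = 0.00585); without activated replicate 1 it was 0.48 (adjusted p = 0.0333). It also passed with a filter at 5 CPM and by limma-voom (adjusted p = 0.0445 and 0.0421). The tolerized call was lost without tolerized replicates 1, 2 or 3 or naive replicates 2 or 3 (each in turn, adjusted p = 0.0613 to 0.113, log2 change 0.43 to 0.55). With library-size scaling no Sc5d value passed, at 0.16 (adjusted p = 0.514) in inflamed, 0.23 (adjusted p = 0.356) in tolerized and 0.065 in activated cells. Ebp, a sterol isomerase, had 26.3, 24.9 and 24.9 CPM in inflamed, 25.5, 23.8 and 32.3 CPM in tolerized and 23.8, 25.4 and 26.4 CPM in activated cells. In naive cells Ebp had 26.0, 25.0 and 22.6 CPM. Its groups overlapped in every comparison with naive cells (0.049 in inflamed, 0.14 in tolerized and 0.039 in activated cells on the log2 scale, adjusted p = 0.726 in inflamed, 0.318 in tolerized and 0.782 in activated cells), and with library-size scaling it stood at -0.27 in inflamed, -0.16 in tolerized and -0.23 in activated cells, uncalled.

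Tm7sf2 fell in all 3 comparisons and Dhcr7 in inflamed and activated cells. Tm7sf2, which encodes a sterol reductase that shares its step with the lamin B receptor, had 2.11, 2.86 and 2.56 CPM in inflamed, 2.05, 2.95 and 2.94 CPM in tolerized and 2.16, 4.02 and 3.28 CPM in activated cells. In naive cells Tm7sf2 had 6.16, 6.56 and 6.43 CPM. No treated library reached the naive range, and the log2 change was -1.08 in inflamed, -1.03 in tolerized and -0.85 in activated cells (± 0.18 SE, n = 3 libraries a group, adjusted p at most 0.00193). On a pseudocount of 5 CPM it was -0.60, -0.58 and -0.49 in inflamed, tolerized and activated cells, still called. Dhcr7, the reductase of the last step to cholesterol, had 21.5, 23.1 and 17.7 CPM in inflamed, 18.5, 23.1 and 31.5 CPM in tolerized and 15.8, 25.2 and 25.0 CPM in activated cells. In naive cells Dhcr7 had 35.8, 33.4 and 26.9 CPM. Tolerized replicate 3 reached into the naive range, and the log2 change was -0.60 in inflamed, -0.40 in tolerized and -0.54 in activated cells (± 0.22 SE, adjusted p = 0.0311 in inflamed, 0.124 in tolerized and 0.0486 in activated cells). The activated call was lost without inflamed replicates 1, 2 or 3, tolerized replicate 2, activated replicate 1 or naive replicates 1 or 2 (each in turn, adjusted p = 0.0522 to 0.189, log2 change -0.54 to -0.33), with no filter, with only the 2 groups compared and with a replicate block (adjusted p = 0.0651, 0.0551 and 0.0571). The inflamed call was lost without inflamed replicates 1 or 3 or naive replicates 1 or 2 (each in turn, adjusted p = 0.0542 to 0.104, log2 change -0.63 to -0.49). Without tolerized replicate 3 the tolerized value passed, at -0.60 (adjusted p = 0.0314), and it passed with library-size scaling at -0.70 (adjusted p = 0.0234).

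**Figure D2:**
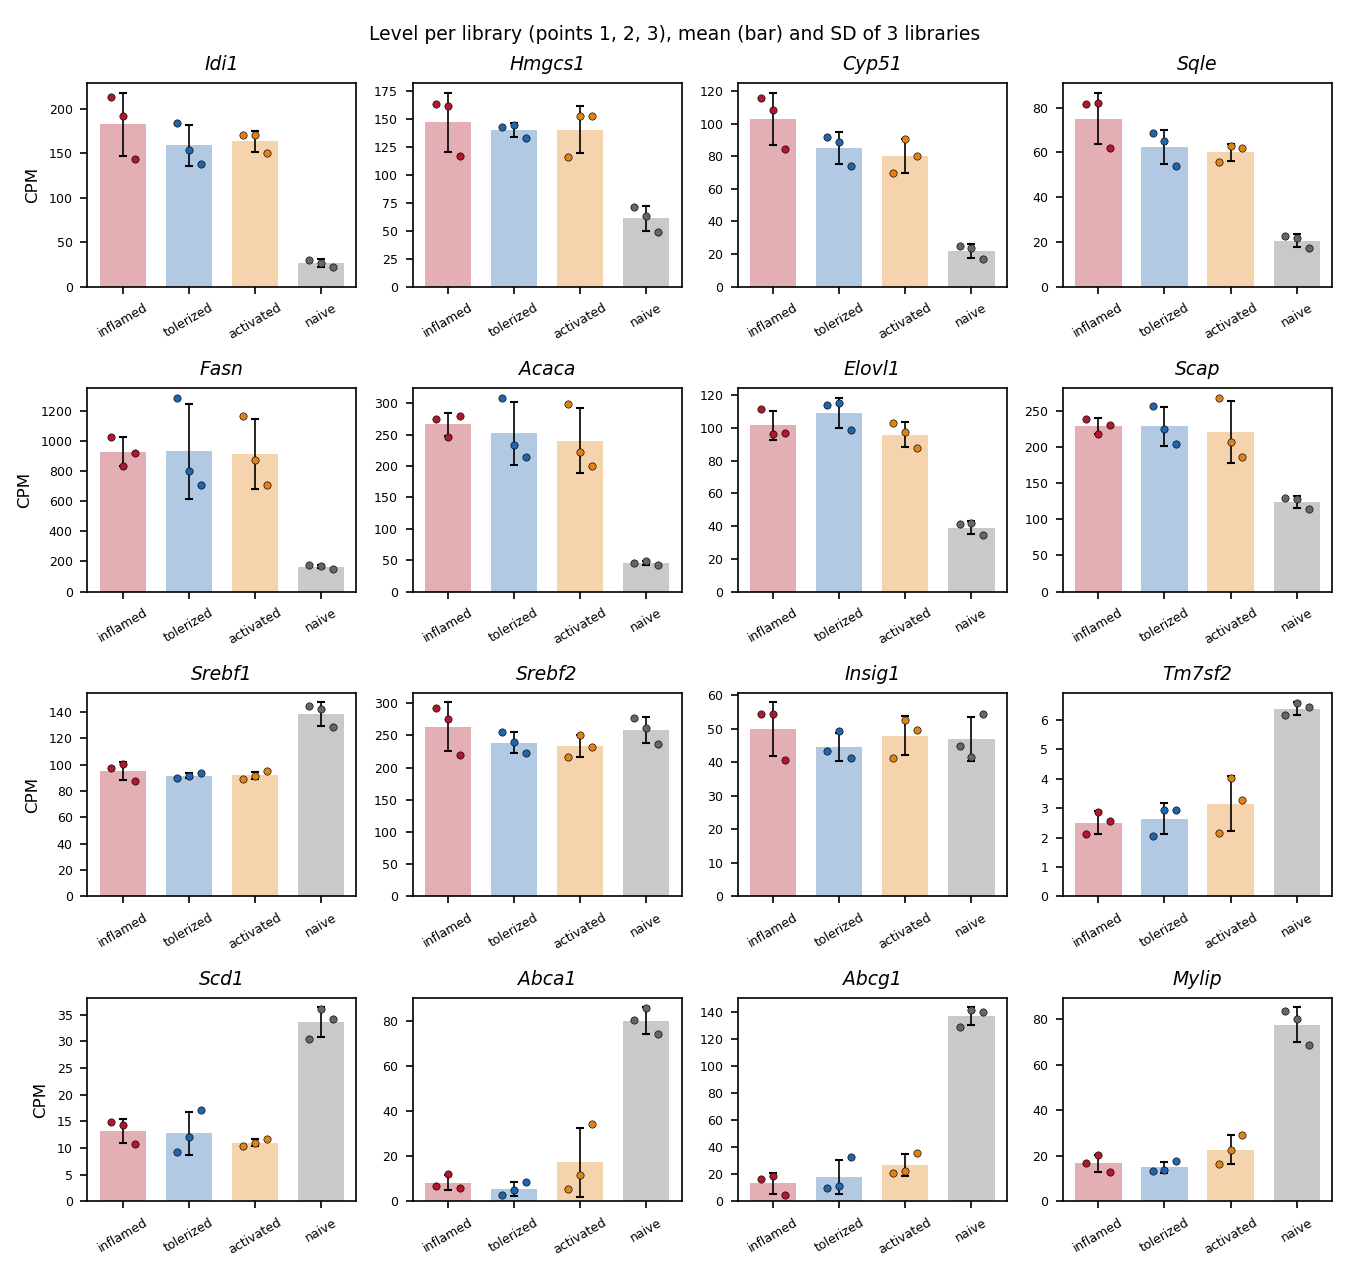
Normalised level (CPM, vertical axes from 0) of 16 of the genes in each of the 12 libraries, with points for libraries and bars for the mean with the SD of 3, in the order inflamed, tolerized, activated and naive. Idi1 stands at 183, 159 and 164 CPM in treated cells against 26.2 CPM in naive cells, while Abca1 stands at 8.27, 5.43 and 17.2 CPM against 80.2 CPM.

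Of the 5 genes that control SREBP, 1 rose and 1 fell in inflamed cells, 1 rose and 2 fell in tolerized cells, and 1 rose and 1 fell in activated cells. Scap rose and Srebf1 fell in all 3 comparisons, and Insig2 fell in tolerized cells. Scap (GRCm38 chr9:110333288-110384949), the sterol sensor and escort of SREBP, had 239, 218 and 231 CPM in inflamed, 257, 225 and 205 CPM in tolerized and 269, 207 and 187 CPM in activated cells. In naive cells Scap had 129, 129 and 114 CPM. All treated libraries were above the naive ones, and the log2 change was 0.88 in inflamed, 0.87 in tolerized and 0.81 in activated cells (± 0.13 SE, n = 3 libraries a group, adjusted p at most 2.90e-04). Srebf2 (GRCm38 chr15:82147269-82205379), which encodes SREBP-2, the main activator of the sterol genes, had 293, 276 and 220.1 CPM in inflamed, 254, 239 and 223 CPM in tolerized and 217, 251 and 232 CPM in activated cells. In naive cells Srebf2 had 276, 261 and 236 CPM. Its groups overlapped, and no difference passed (0.021 in inflamed, -0.11 in tolerized and -0.14 in activated cells on the log2 scale, ± 0.11 SE, adjusted p = 0.873 in inflamed, 0.396 in tolerized and 0.268 in activated cells). With library-size scaling Srebf2 was lower in treated cells, at -0.31 (adjusted p = 0.0296) in inflamed, -0.42 (adjusted p = 0.00649) in tolerized and -0.42 (adjusted p = 0.00678) in activated cells. Srebf1 (GRCm38 chr11:60199084-60224186), which encodes SREBP-1, the activator of fatty acid genes and itself a known target of LXR, had 97.2, 101 and 87.4 CPM in inflamed, 89.7, 91.3 and 93.8 CPM in tolerized and 89.1, 91.4 and 94.8 CPM in activated cells. In naive cells Srebf1 had 145, 142 and 128 CPM. No treated library reached the naive range, and the log2 change was -0.54 in inflamed, -0.59 in tolerized and -0.59 in activated cells (± 0.075 SE, n = 3 libraries a group, adjusted p at most 9.06e-05).

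Insig1 and Insig2 encode the proteins that retain Scap and SREBP in the endoplasmic reticulum. Insig1, itself a known SREBP target, had 54.4, 54.5 and 40.7 CPM in inflamed, 43.4, 49.2 and 41.2 CPM in tolerized and 41.3, 52.7 and 49.7 CPM in activated cells. In naive cells Insig1 had 44.8, 41.5 and 54.3 CPM. The libraries overlapped throughout (0.085 in inflamed, -0.065 in tolerized and 0.032 in activated cells on the log2 scale, ± 0.15 SE, adjusted p at least 0.617). With library-size scaling Insig1 stood at -0.24 in inflamed, -0.37 in tolerized and -0.24 in activated cells, uncalled. Insig2 had 16.1, 16.6 and 18.4 CPM in inflamed, 13.4, 15.5 and 16.2 CPM in tolerized and 14.6, 15.9 and 18.03 CPM in activated cells. In naive cells Insig2 had 23.1, 19.0 and 18.8 CPM. All treated libraries were below the naive ones, but the log2 change of -0.24 in inflamed, -0.41 in tolerized and -0.31 in activated cells (± 0.13 SE) passed the test in tolerized cells alone (adjusted p = 0.120 in inflamed, 0.0145 in tolerized and 0.0519 in activated cells). Its tolerized call was lost without naive replicate 1 (adjusted p = 0.0672) or without tolerized replicate 1 (adjusted p = 0.0559). Its activated value passed without activated replicate 3 (-0.39, adjusted p = 0.0312), without tolerized replicate 1 (adjusted p = 0.0476) and with median-of-ratios scaling (-0.35, adjusted p = 0.0231). It also passed with a filter at 5 CPM and on pseudocounts of 0.1 and 5 CPM (adjusted p = 0.0374, 0.0499 and 0.0488). With library-size scaling Insig2 fell in all 3 comparisons, at -0.55 (adjusted p = 0.00587) in inflamed, -0.71 (adjusted p = 0.00138) in tolerized and -0.57 (adjusted p = 0.00507) in activated cells.

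The 3 genes of fatty acid synthesis rose in each comparison with naive cells. Fasn (GRCm38 chr11:120805958-120825166), fatty acid synthase, which builds palmitate, had 1028, 837 and 923 CPM in inflamed, 1290.1, 799 and 707 CPM in tolerized and 1167, 875 and 706 CPM in activated cells. In naive cells Fasn had 176, 167 and 153 CPM. The lowest treated library stood above 4 times the highest naive one. The means differed 5.62-fold in inflamed, 5.64-fold in tolerized and 5.54-fold in activated cells, with a log2 change of 2.48 in inflamed, 2.44 in tolerized and 2.44 in activated cells (± 0.22 SE, n = 3 libraries a group, adjusted p at most 4.62e-06). Acaca (GRCm38 chr11:84129635-84401651), acetyl-CoA carboxylase 1, which makes the malonyl-CoA that Fasn uses, had 274, 245 and 279 CPM in inflamed, 309, 233 and 214 CPM in tolerized and 299, 222 and 200.2 CPM in activated cells. In naive cells Acaca had 45.6, 48.9 and 41.7 CPM. The mean was higher 5.86-fold in inflamed, 5.55-fold in tolerized and 5.29-fold in activated cells, with a log2 change of 2.53 in inflamed, 2.43 in tolerized and 2.36 in activated cells (± 0.16 SE, n = 3 libraries a group, adjusted p at most 6.64e-07). Acly (GRCm38 chr11:100476352-100528000), ATP citrate lyase, which supplies cytosolic acetyl-CoA to both pathways, had 367, 354 and 358 CPM in inflamed, 355, 331 and 329 CPM in tolerized and 340.5, 332 and 297 CPM in activated cells. In naive cells Acly had 213, 227 and 201 CPM. Its rise was smaller but no treated library reached the naive range, and the log2 change was 0.75 in inflamed, 0.66 in tolerized and 0.59 in activated cells (± 0.075 SE, n = 3 libraries a group, adjusted p at most 4.89e-05).

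Fasn and Acaca varied between libraries of one group, and replicate 1 was the highest of its group in both genes in tolerized and activated cells. Replicate 1 also differed in its counts from 1 to 20, of which 55.6% in tolerized and 56.9% in activated cells were even numbers. In replicates 2 and 3 of these groups the share was 62.7% to 63.6%. In inflamed replicates 1, 2 and 3 it was 57.6%, 61.4% and 61.9%, where Fasn was highest in replicate 1 and Acaca in replicate 3. The part of this difference was not tested. Fasn had SDs of 95.5, 314 and 234 CPM in inflamed, tolerized and activated cells around means of 929, 932 and 916 CPM, and 11.6 CPM around 165 CPM in naive cells. In the same libraries, replicates 1, 2 and 3, the summed level of 7 genes of the naive state (Il7r, Ccr7, Tcf7, Lef1, Klf2, S1pr1 and Bach2) was 1266, 1229 and 1436 CPM in tolerized and 1115, 1483 and 1904 CPM in activated cells. In activated cells the order of the sums was the reverse of the order of Fasn, whereas in tolerized cells the lowest sum was in replicate 2 and the highest level of Fasn in replicate 1. In inflamed cells the sum was 1277, 1539 and 1141 CPM with 1028, 837 and 923 CPM of Fasn, and it was 3359.7, 3231 and 2819 CPM in naive cells. This list was added after the values were seen, and its part in the level of Fasn was not tested.

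Among the genes that desaturate and lengthen fatty acids, 2 of 7 rose and 4 fell in inflamed cells, 2 rose and 2 fell in tolerized cells, and 1 rose and 2 fell in activated cells. Elovl1 (GRCm38 chr4:118426874-118432953), the elongase of saturated and monounsaturated very long chains, had 112, 96.4 and 96.7 CPM in inflamed, 114, 115 and 98.6 CPM in tolerized and 103, 97.5 and 87.4 CPM in activated cells. In naive cells Elovl1 had 41.2, 41.7 and 34.4 CPM. No treated library overlapped a naive one, and the log2 change was 1.36 in inflamed, 1.46 in tolerized and 1.28 in activated cells (± 0.11 SE, n = 3 libraries a group, adjusted p at most 2.37e-06). Elovl6, which lengthens palmitate to stearate, had 13.9, 17.0 and 10.4 CPM in inflamed, 13.8, 15.3 and 16.1 CPM in tolerized and 9.001, 13.3 and 13.1 CPM in activated cells. In naive cells Elovl6 had 11.03, 8.36 and 7.98 CPM. Tolerized libraries alone were clear of the naive ones, and the log2 change was 0.53 in inflamed, 0.68 in tolerized and 0.33 in activated cells (± 0.20 SE, adjusted p = 0.0350 in inflamed, 0.0115 in tolerized and 0.162 in activated cells). The inflamed call of Elovl6 was lost without inflamed replicates 1 or 2 or naive replicates 2 or 3 (each in turn, adjusted p = 0.0794 to 0.140, log2 change 0.38 to 0.51), and the activated value passed without activated replicate 1 (0.50, adjusted p = 0.0484). With library-size scaling no Elovl6 call was left, at 0.23 (adjusted p = 0.367) in inflamed and 0.39 (adjusted p = 0.135) in tolerized cells. Elovl5, an elongase of polyunsaturated fatty acids, went the other way, with 73.2, 80.8 and 63.1 CPM in inflamed, 74.2, 73.0 and 92.7 CPM in tolerized and 73.7, 89.6 and 85.3 CPM in activated cells. In naive cells Elovl5 had 126, 127 and 99.3 CPM. Its treated libraries were all below its naive ones, with a log2 change of -0.69 in inflamed, -0.55 in tolerized and -0.50 in activated cells (± 0.14 SE, n = 3 libraries a group, adjusted p at most 0.00815).

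Scd1 (GRCm38 chr19:44394450-44407709), a stearoyl-CoA desaturase and known target of both SREBP-1 and LXR, had 14.8, 14.3 and 10.7 CPM in inflamed, 9.16, 12.1 and 17.1 CPM in tolerized and 10.4, 10.9 and 11.7 CPM in activated cells. In naive cells Scd1 had 30.5, 36.002 and 34.2 CPM. Treated means were 39.5%, 38.1% and 32.8% of the naive mean in inflamed, tolerized and activated cells, with no overlap and a log2 change of -1.29 in inflamed, -1.36 in tolerized and -1.53 in activated cells (± 0.20 SE, n = 3 libraries a group, adjusted p at most 1.91e-04). Scd2 (GRCm38 chr19:44293676-44306864), its close paralogue, had 17.6, 20.8 and 7.62 CPM in inflamed, 11.2, 30.4 and 79.2 CPM in tolerized and 8.14, 22.4 and 28.4 CPM in activated cells. In naive cells Scd2 had 64.6, 51.4 and 38.4 CPM. Tolerized replicate 3 lay above all naive libraries, whereas the inflamed and activated libraries were all below them. The log2 change was -1.76 in inflamed, -0.71 in tolerized and -1.48 in activated cells (± 0.65 SE, adjusted p = 0.0295 in inflamed, 0.336 in tolerized and 0.0604 in activated cells). Without tolerized replicate 3 the tolerized value was -1.39 (adjusted p = 0.0509), and without tolerized replicate 1 it was -0.033 (adjusted p = 0.964). The inflamed call was lost without inflamed replicate 3 or naive replicates 1 or 2 (each in turn, adjusted p = 0.0658 to 0.111, log2 change -1.74 to -1.35). The activated value passed without activated replicate 3 (-1.81, adjusted p = 0.0441), and without tolerized replicate 1 or tolerized replicate 3 (adjusted p = 0.0263 and 0.0257). It also passed with median-of-ratios scaling (-1.52, adjusted p = 0.0479), with library-size scaling (-1.74, adjusted p = 0.0370) and with only the 2 groups compared (adjusted p = 0.0223). In tolerized replicates 1, 2 and 3 the mitosis genes summed to 32.5, 170.3 and 732 CPM, in the order of Scd2. The B cell markers summed to 57.6, 92.3 and 122 CPM, in the same order. In inflamed cells the mitosis sum had the order of Scd2 and the B cell sum did not. In activated cells neither sum had that order, and in naive cells both ran in the reverse order. The part of these genes in the level of Scd2 was not tested. The reads of Scd1 and Scd2 may be split between both genes in a way the table does not show.

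Fads1, the delta-5 desaturase, had 28.6, 31.2 and 30.6 CPM in inflamed, 32.6, 32.4 and 36.6 CPM in tolerized and 30.8, 35.1 and 34.5 CPM in activated cells. In naive cells Fads1 had 38.0, 42.6 and 36.05 CPM. Inflamed and activated libraries were below the naive ones, and the log2 change of -0.36 in inflamed, -0.19 in tolerized and -0.21 in activated cells (± 0.10 SE) passed in inflamed cells alone (adjusted p = 0.00694 in inflamed, 0.0955 in tolerized and 0.0761 in activated cells). With median-of-ratios scaling it also passed in tolerized (-0.24, adjusted p = 0.0274) and activated cells (-0.25, adjusted p = 0.0215), and with library-size scaling at -0.50 (adjusted p = 0.00190) in tolerized and -0.48 (adjusted p = 0.00260) in activated cells. Fads2, the delta-6 desaturase, was barely present, with 6 to 55 reads a library. Its levels were 0.275, 0.234 and 0.149 CPM in inflamed, 0.266, 0.179 and 0.349 CPM in tolerized and 0.216, 0.320 and 0.169 CPM in activated cells. In naive cells Fads2 had 0.131, 0.198 and 1.44 CPM, and naive replicate 3 alone passed 1 CPM, so no difference was detectable at this depth (adjusted p = 0.291 in inflamed, 0.382 in tolerized and 0.322 in activated cells).

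Of the 5 genes of LXR, efflux and transport, 1 rose and 3 fell in inflamed cells, 1 rose and 4 fell in tolerized cells, and 0 rose and 4 fell in activated cells. Abca1, Abcg1 and Mylip had the largest falls of the list in each comparison. Abca1 (GRCm38 chr4:53030789-53159988), the pump that loads cholesterol onto lipid-poor apolipoprotein, had 6.70, 12.1 and 6.03 CPM in inflamed, 2.58, 4.93 and 8.76 CPM in tolerized and 5.47, 11.7 and 34.5 CPM in activated cells. In naive cells Abca1 had 80.3, 85.9 and 74.2 CPM. No treated library reached the naive range, and within each treated group the libraries differed by more than those of naive cells did as a share of the mean. The treated means were 10.3%, 6.77% and 21.5% of the naive mean in inflamed, tolerized and activated cells, with a log2 change of -3.18 in inflamed, -3.77 in tolerized and -2.50 in activated cells (± 0.54 SE, n = 3 libraries a group, adjusted p at most 0.00196). Activated replicate 3 held the most Abca1 of the treated libraries, and without it the activated value was -3.16 (adjusted p = 1.30e-04). On a pseudocount of 5 CPM the tolerized fall was -3.07 (adjusted p = 6.65e-05). Abcg1 (GRCm38 chr17:31057694-31117984), the pump that exports cholesterol to mature lipoprotein, had 16.5, 18.7 and 4.57 CPM in inflamed, 9.57, 11.3 and 32.5 CPM in tolerized and 21.0, 22.6 and 35.8 CPM in activated cells. In naive cells Abcg1 had 129, 141 and 139 CPM. The treated means were 9.72%, 13.0% and 19.4% of the naive mean in inflamed, tolerized and activated cells, with a log2 change of -3.47 in inflamed, -3.07 in tolerized and -2.36 in activated cells (± 0.51 SE, n = 3 libraries a group, adjusted p at most 0.00181). Mylip (GRCm38 chr13:45389742-45411940), also named Idol, a ubiquitin ligase that LXR induces, had 16.8, 20.5 and 13.1 CPM in inflamed, 13.3, 13.9 and 17.8 CPM in tolerized and 16.4, 22.4 and 29.1 CPM in activated cells. In naive cells Mylip had 83.7, 80.1 and 68.9 CPM. Its treated libraries were far below its naive ones, with a log2 change of -2.16 in inflamed, -2.30 in tolerized and -1.76 in activated cells (± 0.21 SE, n = 3 libraries a group, adjusted p at most 3.66e-05).

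Macrophages are rich in these transporters. Of the 10 macrophage markers, 8 fell and 1 rose in inflamed cells, 9 fell in tolerized cells and 5 fell in activated cells against naive cells. Of the 7 genes of the naive state, 6 fell and 1 rose in each of these comparisons. The summed level of the 10 macrophage markers in replicates 1, 2 and 3 was 536, 173 and 9.11 CPM in inflamed, 109, 84.3 and 32.5 CPM in tolerized, 595, 134 and 45.2 CPM in activated and 621, 1557 and 1565 CPM in naive cells. No macrophage marker was at 0 in any library. Activated replicate 1 and naive replicate 1 had close sums, 595 and 621 CPM, and held 5.47 and 80.3 CPM of Abca1, 21.0 and 129 CPM of Abcg1, and 16.4 and 83.7 CPM of Mylip. In activated cells the order of the macrophage sums was the reverse of the order of Abca1, whose highest library, replicate 3, had the lowest macrophage sum. The sums of the 7 genes of the naive state, given above, had the same order as Abca1, Abcg1 and Mylip over the 3 libraries of inflamed and of activated cells. In tolerized cells replicate 3 was the highest in the sum and in all 3 genes, but replicate 2 was the lowest in the sum and replicate 1 in the genes. Their part in the levels of these genes was not tested.

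**Figure D3:**
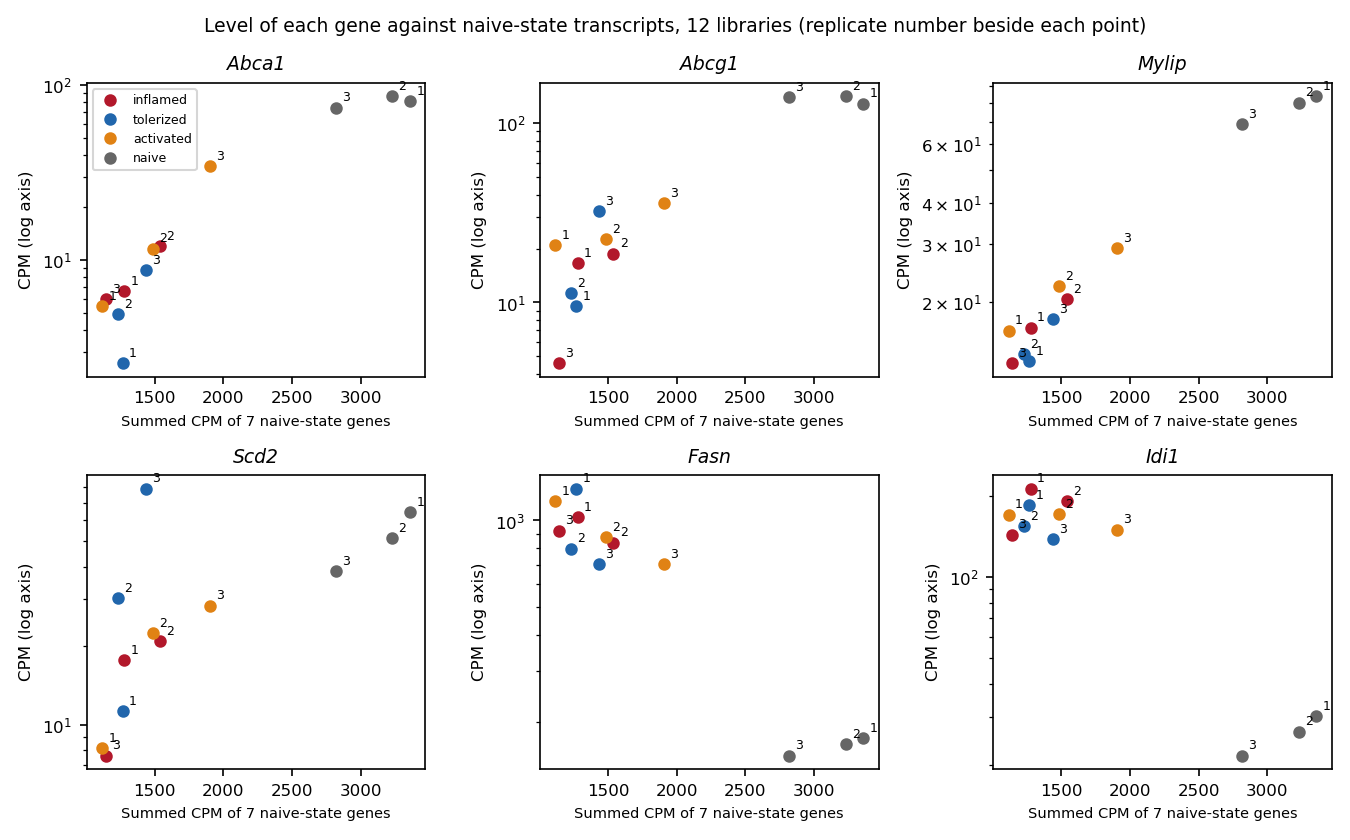
Level of Abca1, Abcg1, Mylip, Scd2, Fasn and Idi1 (vertical axes, CPM, log scale) in each of the 12 libraries against the summed level of 7 genes of the naive state (horizontal axis, CPM). The treated libraries lie at 1115 to 1904 CPM on the horizontal axis and the naive ones at 2819 to 3359.7 CPM, and among the treated ones the library with the most naive-state transcripts, activated replicate 3, also has the most Abca1, 34.5 CPM.

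Nr1h2, which encodes LXR beta itself, moved little. It had 119.8, 119 and 104 CPM in inflamed, 109.9, 102 and 95.0 CPM in tolerized and 105, 116 and 104 CPM in activated cells. In naive cells Nr1h2 had 128, 125 and 127 CPM. All treated libraries were below the naive ones, and the log2 change was -0.15 in inflamed, -0.31 in tolerized and -0.23 in activated cells (± 0.082 SE, adjusted p = 0.125 in inflamed, 0.00586 in tolerized and 0.0287 in activated cells). The activated call was lost without activated replicates 1 or 3 or naive replicates 1, 2 or 3 (each in turn, adjusted p = 0.0585 to 0.0783, log2 change -0.23 to -0.20), and with library-size scaling the inflamed value also passed (-0.48, adjusted p = 4.66e-04). Stard4, a cytosolic carrier of cholesterol and known SREBP target, was the one gene of this role that rose, in inflamed and tolerized cells. It had 52.0, 67.8 and 51.3 CPM in inflamed, 49.995, 60.3 and 67.0 CPM in tolerized and 40.4, 54.2 and 57.3 CPM in activated cells. In naive cells Stard4 had 42.5, 38.6 and 31.4 CPM. Activated and naive libraries overlapped, and the log2 change was 0.59 in inflamed, 0.64 in tolerized and 0.42 in activated cells (± 0.17 SE, adjusted p = 0.0103 in inflamed, 0.00644 in tolerized and 0.0504 in activated cells). The activated value passed without inflamed replicate 2, tolerized replicates 1 or 3, activated replicate 1 or naive replicate 1 (each in turn, adjusted p = 0.0145 to 0.0491, log2 change 0.42 to 0.57), with a filter at 5 CPM, on a pseudocount of 0.1 CPM and by limma-voom (adjusted p = 0.0463, 0.0496 and 0.0431). No Stard4 call was left with library-size scaling (0.27 in inflamed and 0.34 in tolerized cells, adjusted p = 0.243 and 0.143).

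Per length, the order of the genes changed with treatment. In reads per kilobase of exon and M reads (RPKM), Fasn, Acly and Idi1 led the list in inflamed cells at 93.5 ± 9.61, 81.3 ± 1.45 and 63.7 ± 12.4 RPKM (mean ± SD, n = 3). In tolerized cells the leaders were Fasn, Acly and Elovl1 at 93.8 ± 31.5, 76.4 ± 3.22 and 61.3 ± 5.21 RPKM. In activated cells they were Fasn, Acly and Idi1 at 92.2 ± 23.5, 73.0 ± 5.17 and 57.1 ± 4.16 RPKM. Fasn and Acly differed by less than the SD of Fasn in tolerized and activated cells. In naive cells Nr1h2, Srebf2 and Acly led at 64.6 ± 0.598, 56.4 ± 4.40 and 48.2 ± 2.91 RPKM, with Fasn at 16.6 ± 1.17 and Idi1 at 9.14 ± 1.54 RPKM. Nr1h2 and Srebf2 were thus above Fasn and Acly in naive cells and below both in every treated group.

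Between the treated groups no gene of the list passed the test. Tolerized against activated cells asks what anti-CD154 changed in cells that met the same donor splenocytes: 0 of 36 genes were called, and 0% of all genes were called higher and 0% lower. At unadjusted p under 0.05 there were 2 genes of the list, beside 4.25% of all genes. These were Abca1, at -1.27 (95% interval -2.47 to -0.069), and Mylip, at -0.54 (-1.01 to -0.069), each with an adjusted p of 1 by limma. Tolerized and activated libraries overlapped in both genes, and without activated replicate 3 the difference of Abca1 was -0.61 (adjusted p = 1). For 32 of the 36 genes the 95% interval of the difference lay within 2-fold in either direction, and for 27 within 1.5-fold. The exceptions to the first were Scd2, Abca1, Abcg1 and Mylip. The matching share over all genes was not counted. Over all 12499 genes the median half-width of this interval was 0.34 on the log2 scale, in this and the next comparisons. The interval counts are thus not to be read as a trait of the list. Here and in the next comparisons the intervals are on log2(CPM + 1), which shrinks differences of low genes. Those of Fads2, and in part of Tm7sf2, thus do not bound the fold of their levels. For Fasn the difference was 0.0049 (-0.49 to 0.50), for Idi1 -0.050 (-0.42 to 0.32) and for Hmgcs1 0.0041 (-0.37 to 0.38). Scd2 differed by 0.77 (-0.66 to 2.19), which was 0.088 without tolerized replicate 3 and 1.44 without tolerized replicate 1.

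Inflamed against tolerized cells asks what LPS added under the same antibody. Of all genes 1.66% were higher and 1.12% lower in inflamed cells, and 0 of the 36 passed in either direction. At unadjusted p under 0.05 there was 1 gene of the list, beside 14.7% of all genes: Mvk, at -0.32 (-0.59 to -0.046), whose inflamed libraries were all below its tolerized ones. Intervals lay within 2-fold for 33 genes and within 1.5-fold for 28, the exceptions to the first being Scd2, Abca1 and Abcg1. Some sterol enzymes, singled out after their values were seen, had higher means in inflamed cells without passing. Cyp51 differed by 0.27 (-0.10 to 0.63), Sqle by 0.26 (-0.056 to 0.57), Hsd17b7 by 0.27 (-0.029 to 0.58) and Idi1 by 0.19 (-0.18 to 0.56). In these 4 genes inflamed replicates 1 and 2 were above all tolerized libraries and inflamed replicate 3 was among them. Inflamed replicate 3 also had the lowest neutrophil sum of its group, 10.8 CPM against 197.8 and 90.8 CPM in inflamed replicates 1 and 2, and the lowest macrophage sum, 9.11 CPM. The part of these in the difference between libraries was not tested. Scd2 differed by -1.05 (-2.47 to 0.38), which was -0.37 without tolerized replicate 3 and -1.73 without tolerized replicate 1.

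Inflamed against activated cells differ by both the antibody and LPS. Of all genes 1.54% were higher and 0.384% lower in inflamed cells, and again 0 of the 36 genes passed. That is 240.0 of 12499 genes, and 67 with a replicate block in the 2 groups compared, a fit that treats same-numbered libraries as pairs. Among the 36 there were 0 at unadjusted p under 0.05 beside 10.0% of all genes. The interval was within 2-fold for 33 genes and within 1.5-fold for 26, and the exceptions to the first were again Scd2, Abca1 and Abcg1. Acly was higher in each inflamed library than in any activated one, and differed by 0.16 (-0.0079 to 0.32, adjusted p = 0.527). Abcg1 was lower in each inflamed library than in any activated one, and differed by -1.10 (-2.22 to 0.013, adjusted p = 0.507). Cyp51 differed by 0.35 (-0.017 to 0.72) and Abca1 by -0.68 (-1.88 to 0.52), which was -0.023 without activated replicate 3. In the fit of limma-voom and in each of the other fits tried, 0 of the 36 genes passed between treated groups.

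**Figure D4:**
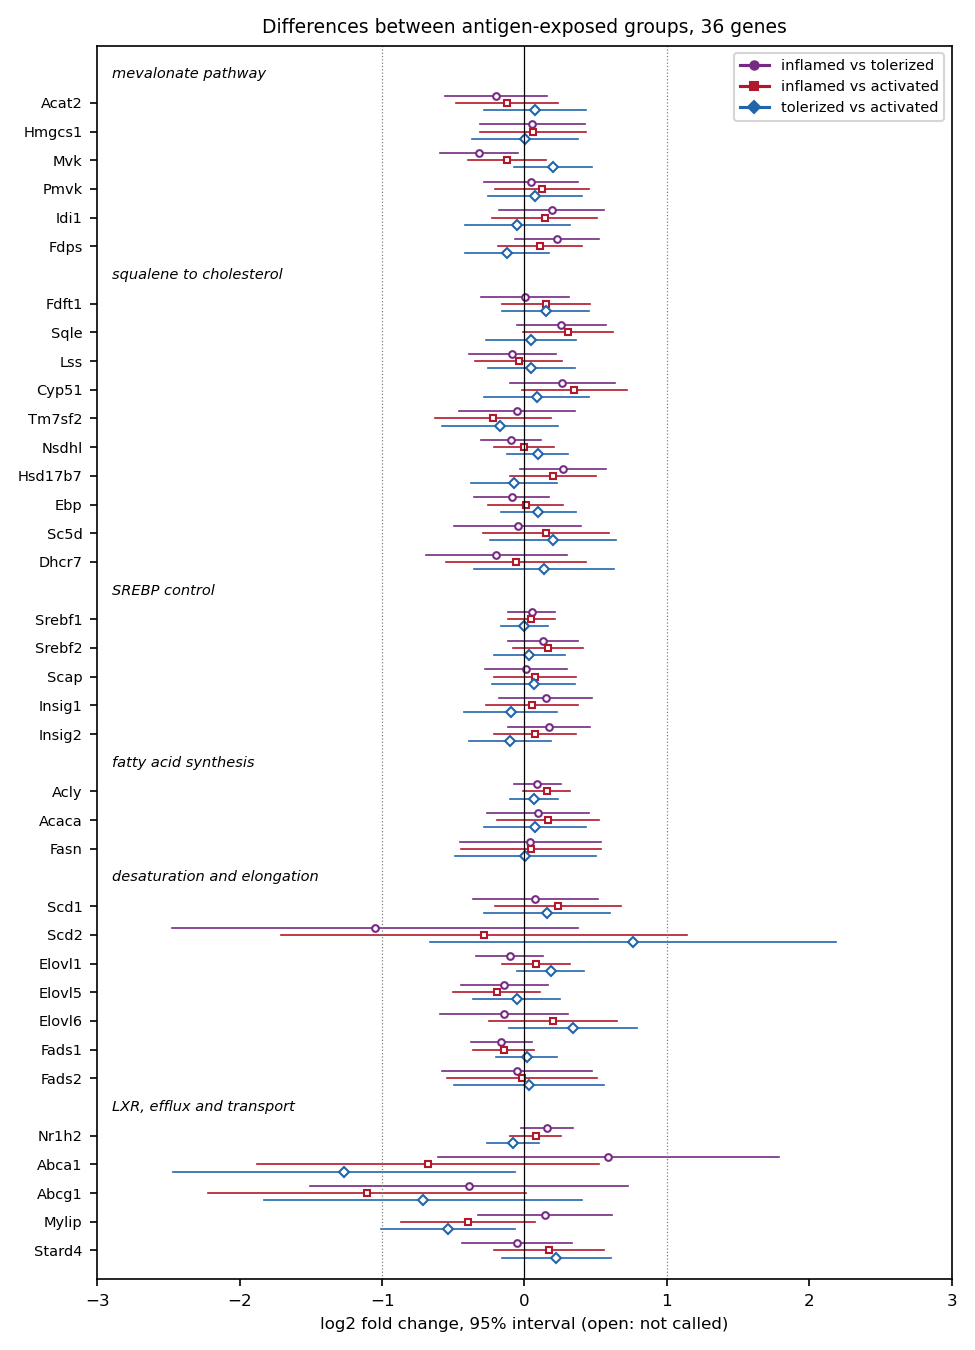
Log2 differences of the 36 genes between the treated groups (horizontal axis) with 95% confidence intervals, for inflamed against tolerized, inflamed against activated and tolerized against activated cells. All points are open, since none passed adjusted p under 0.05, and the widest intervals belong to Scd2, Abca1 and Abcg1, for example -0.66 to 2.19 for Scd2 in tolerized against activated cells.

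Other genes of sterol, prenyl and fatty acid metabolism were counted from a list of 50, of which 49 were tested. Of these, 23 rose and 16 fell in inflamed, 21 rose and 12 fell in tolerized and 19 rose and 15 fell in activated cells against naive cells. Of all genes, 36.9%, 37.4% and 35.3% rose and 35.5%, 35.9% and 35.3% fell in inflamed, tolerized and activated cells. The median log2 change of the 49 was 0.23, 0.14 and 0.21 beside the medians of all genes given above. The largest rises were those of Fabp5, a fatty acid binding protein, at 3.77 in inflamed, 3.75 in tolerized and 3.69 in activated cells, and of Ptpla, a dehydratase of very long chain synthesis, at 2.86 in inflamed, 2.93 in tolerized and 2.91 in activated cells (adjusted p at most 7.10e-07 and 5.72e-07 by limma). The third was Acsl4, an acyl-CoA synthetase, in inflamed cells (1.70) and Pdss1, of ubiquinone side chain synthesis, in tolerized (1.75) and activated cells (1.69). Among the falls, Elovl7, an elongase, stood at -2.60 in inflamed, -2.33 in tolerized and -2.01 in activated cells and Lpin1, a phosphatidate phosphatase, at -2.79 in inflamed, -2.35 in tolerized and -1.94 in activated cells (adjusted p at most 0.00117 and 0.00329). Acss2, which makes acetyl-CoA from acetate, fell by 2.74 in inflamed and 1.92 in activated cells on the log2 scale, and Npc2, which moves cholesterol out of lysosomes, by 2.17 in tolerized cells.

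Those genes were named by size, and Sc4mol after its values were seen. Sc4mol, the older symbol of Msmo1, the sterol methyl oxidase, had 29.8, 33.5 and 26.1 CPM in inflamed, 22.2, 25.9 and 25.2 CPM in tolerized and 18.8, 27.9 and 34.2 CPM in activated cells. In naive cells Sc4mol had 22.8, 22.4 and 18.3 CPM. The difference passed in inflamed cells alone (log2 change 0.48, adjusted p = 0.0441). Between treated groups, 2 genes of the 49 were higher and 1 was lower in inflamed than in tolerized cells, beside 1.66% and 1.12% of all genes. Against activated cells 2 were higher and 0 lower in inflamed cells, beside 1.54% and 0.384% of all genes. Stard3, a carrier of cholesterol at endosomes, differed by 0.59 from tolerized and 0.56 from activated cells (adjusted p = 0.00344 and 0.00633). Acsl5, another acyl-CoA synthetase, differed by 0.38 and 0.56 (adjusted p = 0.0274 and 0.00389). Rxrb, which encodes a partner receptor of LXR, was lower than in tolerized cells by 0.31 on the log2 scale (adjusted p = 0.0378). In tolerized against activated cells 0 of the 49 passed, beside 0% of all genes.

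Some counts may hold reads of a second gene. The sources used here do not state that strand was used in counting, and in the GRCm38 annotation exons overlap on the opposite strand between Fdft1 and Ctsb (774 bases), Cyp51 and Akap9 (166 bases), Srebf1 and Rai1 (109 bases), and Elovl1 and Cdc20 (53 bases). Scap, Hmgcs1, Lss and Idi1 overlap RNAs without an established function, by 785, 557, 381 and 323 bases. On the same strand Fdps shares 1124 bases with such an RNA, Scd2 shares 61 bases with a microRNA gene, and Tm7sf2 shares 14 bases with Vps51.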

How the data were processed

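RNA was sequenced from the 12 sorted samples. The deposited table lists whole read counts by gene with commas as digit separators (other columns give exon length), not normalized. Per the submitters' processing notes, TopHat2, bedtools, DESeq and the builds mm10 and GRCm38 were used, without versions or roles. The extraction text also names embryonic fibroblasts, against the other fields. Because commas make the values read as text, the unit on record is other, and limma-trend stands in for a count model. Totals were 29.3 M to 84.5 M (mega) reads. Even values made up 55.6% to 64.4% of counts from 1 to 20, so read pairs may have been counted as 2.

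Counts became CPM by trimmed mean of M values (30% and 5% trimmed, factors 0.897 to 1.22). Genes needed 0.258 CPM (10 reads at the median library) in 3 libraries and 15 reads in all. The 2-sided test was limma-trend in R 4.3.3 (limma version 3.58.1), fitted to log2(CPM + 1) of all 12 libraries by group, and called at Benjamini-Hochberg adjusted p under 0.05. Log2 fold changes use this scale, which understates low genes, while folds compare mean CPM. The code was tested on simulated data. Reads are not independent molecules, so read numbers give counting error only.

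Members and lists were chosen with earlier results of these data known. Some genes of the supporting lists are not reported here and were left out of their sums and counts, after the values were known. Every listed gene is named, and of the pathway list the 3 largest rises and falls per comparison, with stated exceptions. Alternatives were other scaling (median of ratios, library size), other filters (none, or 5 CPM), pseudocounts 0.1 and 5, limma-voom, the 2 groups alone, a replicate block and each library left out. Pairing by replicate number, whose meaning no label gives, was judged from correlated deviations around group means. All 3 same-number pairs exceeded 0.1 for tolerized and activated (0.19 to 0.60) and for inflamed and activated cells (0.15 to 0.64), unlike elsewhere. Unlike numbers reached 0.21 (tolerized 3 with activated 2) and 0.56 (inflamed 2 with activated 3), so whether the numbers pair the libraries is not settled. Block fits of just these 2 comparisons were added with the values known. Promoter sequences are from RefSeq, GRCm38.p6.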

Additional observations from a re-analysis of the deposited data

How the results depend on the processing

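Of the genes of the list called against naive cells, 24 of 27 in inflamed, 25 of 28 in tolerized and 21 of 23 in activated cells kept their call in all 12 fits with a library left out, and 22, 22 and 21 under every alternative. The number called ran from 24 to 28 in inflamed, 26 to 29 in tolerized and 21 to 27 in activated cells over all alternatives, and was 0 between treated groups in all of them. Library-size scaling turned the sign of 9 uncalled values against naive cells and of 0 called ones. Mvk, at -0.30, and Srebf2, at -0.31, both in inflamed cells, were the pair that then passed. The other 7 were Acat2 and Insig1 in inflamed cells, Mvk and Insig1 in activated cells and Ebp in all 3, uncalled in either scaling. The depth limit touched Fads2, with 6 to 55 reads.

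Counts over all genes moved more between treated groups. In inflamed against tolerized cells 348 genes were called, 148 with only the 2 groups compared, and 156 to 539 with a library left out (156 without tolerized replicate 2, 181 without inflamed replicate 1 or 2, 539 without tolerized replicate 1). In inflamed against activated cells 240.0 were called, 99 with only the 2 groups compared, 67 with the replicate block in the 2 groups compared, and 107 to 329 with a library left out (107 without activated replicate 2, 133 without inflamed replicate 1, 128 without inflamed replicate 2). In tolerized against activated cells 0 were called (531 at unadjusted p under 0.05 by limma), and 0 to 65 with a library left out, with 65 without tolerized replicate 1. The cause of these changes was not tested, beyond the fewer libraries in each such fit. The replicate block in all 12 libraries left 27, 28 and 22 genes of the list called in inflamed, tolerized and activated cells against naive cells, where same-numbered libraries share only a number; Dhcr7 in activated cells was the call it lost.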
